A study of Homo sapiens with 6 samples.

Results

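The Schlafen genes SLFN5, SLFN11, SLFN12 and SLFN13 were followed through the transcriptome of UWB1.289 cells treated with the PARP inhibitor Olaparib. These 4 of the 63677 genes in the count table were chosen by name, because SLFN11 marks sensitivity to PARP inhibitors and the other members are related genes of the same cluster. UWB1.289 is a human ovarian cancer line without functional BRCA1. All 6 samples came from this single line, which the labels call WT, so no BRCA1-proficient cells were compared. Cells received Olaparib at 4 µM or the vehicle DMSO for 24 h, with 3 samples in each group, while the design text of the series gives 10 µM.

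Schlafen proteins share an N-terminal domain related to nucleases and ATPases, and several of them cut transfer RNA. SLFN11 is recruited to stalled replication forks through the single-strand binding protein RPA and blocks further DNA synthesis there, and cells that lack it tolerate PARP trapping and other replication stress better. Type I interferon induces Schlafen genes in many cell types, which ties the family to both the DNA damage response and the antiviral response.

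The 4 members lie in a cluster of 6 Schlafen genes that spans 317749 bp of chromosome 17 (GRCh38, GENCODE release 44). SLFN5 (ENSG00000166750) occupies chr17:35243071-35273655 on the plus strand. SLFN11 (ENSG00000172716) at chr17:35350305-35373701, SLFN12 (ENSG00000172123) at chr17:35410922-35433283 and SLFN13 (ENSG00000154760) at chr17:35435096-35448837 are all on the minus strand. SLFN12L and SLFN14 follow at the far end, and SLFNL1 is a Schlafen-like gene on chromosome 1. No exonic base of the 4 members overlapped another annotated gene. SLFN11 and SLFN13 do share exact sequence, however. Of all distinct 50-base stretches of SLFN11 transcripts, 9.69% also occurred in SLFN13, and at 100 bases the share was 6.28%. A read from such a stretch cannot be assigned to either gene by sequence alone. SLFN5 shared none at any of these lengths, and SLFN12 shared 49 of its 3813 distinct 50-base stretches with SLFN12L.

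The sequences upstream of the SLFN11, SLFN12 and SLFN12L starts are shown because these neighbours differed widely in transcript level in the same cells, and because interferon and ETS factors are known inputs to the family. They are RefSeq promoters on GRCh38.p14, printed 5′ to 3′ on the minus strand at chr17:35373702-35373871, chr17:35433284-35433424 and chr17:35537679-35537928, restricted to bases upstream of every annotated exon. Capitals mark matches to the interferon-related motifs that were searched.
SLFN11: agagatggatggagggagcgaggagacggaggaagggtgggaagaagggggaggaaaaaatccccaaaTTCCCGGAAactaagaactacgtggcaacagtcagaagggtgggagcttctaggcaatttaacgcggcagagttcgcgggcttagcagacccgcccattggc
SLFN12: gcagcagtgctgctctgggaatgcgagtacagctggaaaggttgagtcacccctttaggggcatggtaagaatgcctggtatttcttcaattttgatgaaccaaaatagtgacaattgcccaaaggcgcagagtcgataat
SLFN12L: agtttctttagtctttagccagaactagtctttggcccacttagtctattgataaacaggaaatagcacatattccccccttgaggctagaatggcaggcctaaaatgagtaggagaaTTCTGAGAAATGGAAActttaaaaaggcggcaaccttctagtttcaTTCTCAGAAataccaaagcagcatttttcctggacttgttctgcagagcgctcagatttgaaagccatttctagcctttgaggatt
Both strands of 300 bases per promoter were searched, from 250 bases before to 50 bases after the RefSeq start. The letters were GAAA, any 2 bases and GAAA again for the core of the interferon-stimulated response element (ISRE), TTCNNNGAA for the gamma-activated site (GAS) and CCGGAA for the ETS core. The SLFN11 window held 1 GAS match starting 182 bases upstream, inside which lay its 1 ETS core match, and no ISRE match. The SLFN12 window held 2 ETS core matches, 94 and 17 bases upstream and outside the printed stretch, with no GAS or ISRE match. In SLFN12L, 1 ISRE match lay 126 bases upstream, overlapping the first of 2 GAS matches. Among all 35116 RefSeq promoter windows of this length, 3.57% held an ISRE match, 7.66% a GAS match and 17.2% an ETS core match. The window of SLFN11 held 18 CpG dinucleotides, that of SLFN12 13 and that of SLFN12L 2, against a median of 14 over all promoters. The table of promoters used here has no entry for SLFN5, SLFN13, SLFN14 or SLFNL1.

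Total counts per library lay between 35360458 and 39640775, and mitochondrial genes took 5.68% to 6.11% of them. Of 8 epithelial and ovarian markers, 7 had over 10 counts in total, and their summed normalised counts were 484800 to 509800 with Olaparib and 478200 to 494700 with DMSO. WT1, a marker of serous ovarian tumours, had only 8 counts over all libraries. Of 10 leukocyte markers, 4 exceeded 10 counts and 2 were at 0, with sums of 125.3 to 145.7 and 105.9 to 129.7. Of 8 stromal and endothelial markers, 4 exceeded 10 counts and 2 were at 0, with sums of 3244 to 3412 and 3324 to 3454. Among these markers, the epithelial factor PAX8 rose by 0.10 and the endothelial VWF by 0.68 on the log2 scale (adjusted p = 0.04 and 0.0106 in edgeR's test). Of the 7 epithelial and ovarian markers tested, 5 had a positive and 2 a negative log2 fold change. Of the 4 stromal and endothelial markers tested, only VWF was positive and 3 were negative. These 3 were the endothelial CDH5 (-0.075), COL1A1 (-0.11) and COL1A2 (-0.015). VWF did not pass in DESeq2 (adjusted p = 0.071), and PAX8 did not pass with upper quartile scaling (0.0604) or in 5 of the 6 fits that left out a library. The part of these cells or markers in the results was not tested. In bulk RNA, fewer cells with a transcript and less of it per cell cannot be told apart.

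The DMSO-treated cells contained moderate levels of SLFN5, SLFN13 and SLFN12 transcripts and very little SLFN11. Levels between genes were compared as TMM-normalised CPM per kb of exonic length. In DMSO, SLFN5 stood at 7.48 ± 0.276 (SD, n = 3), SLFN13 at 5.52 ± 0.107, SLFN12 at 5.12 ± 0.0809 and SLFN11 at 0.135 ± 0.0421. SLFN5 thus lay above 65.6% of the protein-coding genes that passed the filter, SLFN13 above 58.7%, SLFN12 above 57.0% and SLFN11 above 14.7%. Per kb, SLFN5 exceeded SLFN11 by 58.7 ± 16.8 fold within a DMSO library, with a range of 42.1 to 75.6. The ranges of SLFN5, SLFN13 and SLFN11 were far apart. The order of SLFN12 and SLFN13 was less secure, since their ranges in DMSO, 5.05 to 5.21 and 5.4 to 5.62, were separate but depended on the gene length. With the length of the Ensembl canonical transcript, an alternative chosen after the data were seen, SLFN12 in DMSO came to 7.50, SLFN13 to 6.13 and SLFN5 to 7.57. SLFN11 remained lowest at 0.157.

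**Figure D1:**
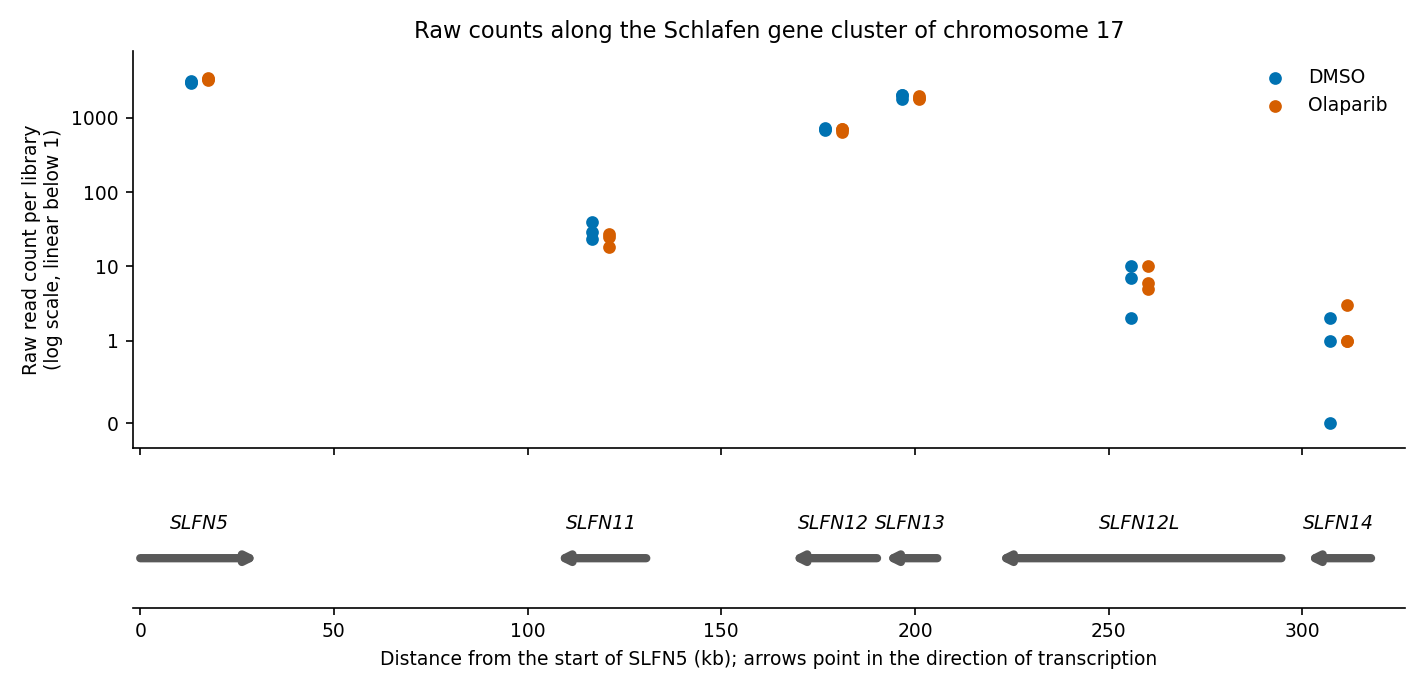
Raw read counts per library (vertical axis, log scale, linear below 1) for the 6 Schlafen genes of chromosome 17, placed by distance from the start of SLFN5 in kb, with arrows for gene extent and direction. Blue points are DMSO and orange points Olaparib libraries. SLFN11 held 18 to 39 counts between neighbours with at least 654, and SLFN12L and SLFN14 held at most 10.

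SLFN11, the gene that links the family to PARP inhibitors, had 27, 18 and 25 raw counts in the Olaparib libraries and 39, 23 and 29 in the DMSO libraries. The groups overlapped, and the DMSO library of replicate 1 was the highest of all. For its 39 counts the exact 95% Poisson interval ran from 27.7 to 53.3, and for the lowest library, with 18 counts, from 10.7 to 28.4. The intervals of these extremes overlapped only narrowly, and such overlap does not test whether the libraries differ. These intervals cover counting error only. Normalised counts averaged 23.5 ± 4.57 with Olaparib and 30.3 ± 9.43 with DMSO (SD, n = 3). The log2 fold change was -0.35 with a 95% interval of -0.85 to 0.15, which as a change in percent ran from -44.4 to 11.0 around -21.5 (edgeR's quasi-likelihood test, adjusted p = 0.561 by the Benjamini-Hochberg method). A difference in SLFN11 was not detected at these counts with n = 3, and falls of up to that lower bound stayed within the interval. Without DMSO replicate 1 the log2 fold change was -0.086.

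SLFN5 was the member that rose. It encodes a nuclear Schlafen protein that interferon induces and that restrains interferon-dependent transcription. Its normalised counts were 3504, 3326 and 3304 in the Olaparib libraries and 3064, 3043 and 2863 in the DMSO libraries. Every treated library lay above every control library, and 1 of the 4 members had groups that did not overlap. Over all 21729 genes tested that share was 19.3%, made up of 10% with higher and 9.29% with lower values in Olaparib. The means were 3378 ± 109 and 2990 ± 110 (SD, n = 3), a rise of 13.0% with a 95% interval of 6.98% to 19.4%. The log2 fold change was 0.18 (SE 0.039) with an adjusted p of 0.00579 in the same edgeR test. This fold was under the 1.2-fold change that was also required for a gene to be called differentially expressed. So 1 of the 4 members passed the adjusted p in either direction, against a background of 3.36% of all genes (2.15% higher and 1.21% lower), and 0 met both criteria, against 1.21% of all genes (0.723% higher and 0.483% lower). In an exact two-sided permutation test on SLFN5 alone p was 0.1, the smallest that 3 against 3 samples allow. Without DMSO replicate 3, the lowest library, the log2 fold change was 0.14 and the adjusted p by the edgeR test 0.0893, the highest of its alternatives, whose lowest was 0.000568.

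SLFN12 and SLFN13 gave no such difference. SLFN12 is a ribonuclease that is activated when small molecules bind it to the phosphodiesterase PDE3A. It had 711.5, 670.8 and 707.8 normalised counts with Olaparib and 716.2, 700.1 and 694.9 with DMSO, and the groups overlapped. Its log2 fold change was -0.014 with an interval of -0.11 to 0.086 (edgeR, adjusted p = 0.942), which bounds any change between -7.59% and 6.14%. SLFN13, which cleaves transfer and ribosomal RNA, had 1965, 1854 and 1827 normalised counts with Olaparib and 1887, 1961 and 1932 with DMSO. The treated libraries held both the highest and the lowest value. Its log2 fold change was -0.034 with an interval of -0.12 to 0.051 (edgeR, adjusted p = 0.778), or -7.92% to 3.58%.

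**Figure D2:**
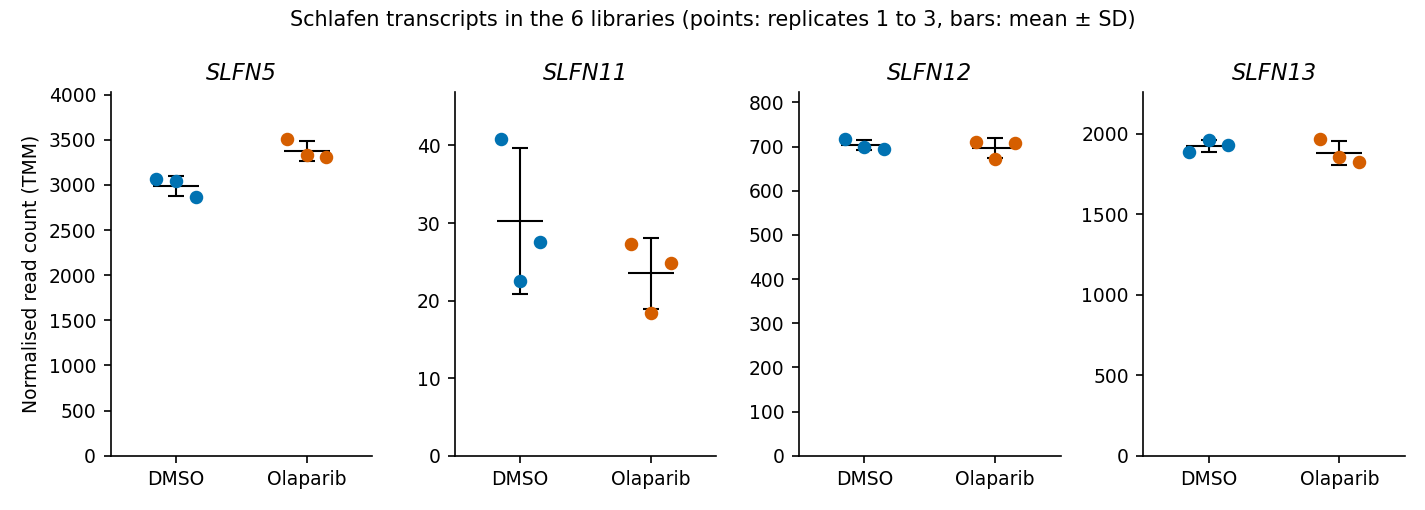
TMM-normalised read counts (vertical axes from 0, a separate scale for each gene) of the 4 Schlafen members in the DMSO (blue) and Olaparib (orange) libraries, with points for replicates 1 to 3 and bars for mean ± SD. The SLFN5 points of the 2 groups are apart, 3304 to 3504 over 2863 to 3064, while those of SLFN11, SLFN12 and SLFN13 overlap.

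Ratios between members of the same library do not depend on library scaling. The log2 ratio of SLFN5 to SLFN13 was 0.835, 0.843 and 0.855 in the Olaparib libraries and 0.699, 0.634 and 0.567 in the DMSO libraries. The groups were separate and differed by 0.21. For SLFN5 over SLFN12 the ratio was 2.30, 2.31 and 2.22 with Olaparib and 2.10, 2.12 and 2.04 with DMSO, again separate, with a difference of 0.19. Each gave the smallest p possible, 0.1 in a two-sided exact permutation test, or 0.3 after Benjamini-Hochberg adjustment over the 6 pairs. The ratio of SLFN12 to SLFN13 differed by 0.02 (exact permutation p = 0.5), and the 3 ratios with SLFN11 overlapped between groups. Of the summed level per kb of the 4 members, SLFN5 made up 41.0% ± 0.782 in DMSO and 44.5% ± 0.348 with Olaparib (SD, n = 3). SLFN13 accounted for 30.2% and 28.3%, SLFN12 for 28.0% and 26.6%, and SLFN11 for 0.740% and 0.552%. These shares add up to the whole, so a rise of SLFN5 alone lowers the others. They also depend on the gene length used.

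The other Schlafen genes were close to the limit of detection. SLFN12L had 6, 5 and 10 counts with Olaparib and 10, 2 and 7 with DMSO. SLFN14, a ribosome-associated ribonuclease best known from platelets, had 8 counts in all libraries together, no more than 3 in any, and was not tested. SLFNL1 had 3, 5 and 6 counts against 2, 1 and 4, and 30.2% of its exonic bases overlap an antisense gene. Neither tested gene passed, with adjusted p of 0.927 for SLFN12L and 0.524 for SLFNL1 by the edgeR test.

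Genes near the cluster were examined to see whether the difference at SLFN5 extended along the chromosome. Of 59 genes of the table within 500 kb on either side, 18 passed the filter on low counts. Of these 18, 0 passed the adjusted threshold of 0.05 in the edgeR test, against 3.36% of all genes. At an unadjusted p under 0.05, 1 was higher and 1 lower, beside 1702 and 1515 of the 21729 genes tested. The median log2 fold change of the 18 neighbours was -0.02, beside -0.0042 over all genes tested. On the SLFN5 side, the nearest protein-coding gene of the table, SLC35G3, was listed at 0 in all libraries.

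Many of the interferon-stimulated genes, which antiviral signalling induces, rose. Of 35 interferon-stimulated genes, all tested, 24 passed the adjusted threshold of 0.05 in the edgeR test with a higher level in Olaparib, and 0 were lower. Over all genes tested, 2.15% were higher and 1.21% lower at that threshold. At an unadjusted p under 0.05 the counts were 30 and 0, beside 1702 and 1515 of the 21729 genes tested. DESeq2 placed 15 of the 35 past the adjusted threshold and edgeR with robust dispersion 16. With the 1.2-fold criterion added 21 were higher, against 0.723% of all genes. Their median log2 fold change was 0.40, beside -0.0042 over all genes. MX1, a GTPase that traps viral nucleocapsids, had 402.8, 644.1 and 739.6 normalised counts with Olaparib and 354.5, 228.5 and 284.4 with DMSO. All treated libraries were above all controls (log2 fold change 1.05, adjusted p = 1.22e-06 in edgeR). IFIT1, which binds foreign RNA caps, rose by a log2 fold change of 1.04. The oligoadenylate synthetases, which sense double-stranded RNA, rose by 0.94 for OAS2, 0.63 for OAS1 and 0.52 for OAS3. With robust dispersion, and in no other alternative, MX1, IFIT1, OAS1, OAS2 and OAS3 lost their call at the same fold changes (edgeR, adjusted p from 0.152 for OAS3 to 0.255 for OAS1). The ADP-ribosyltransferase PARP14 rose by 0.37, a call kept in all of these fits. ISG20, an exonuclease, was the 1 gene with a negative estimate (-0.076, adjusted p = 0.768 in edgeR). Of the 35 genes, 4 had a log2 fold change smaller than the 0.18 of SLFN5.

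**Figure D3:**
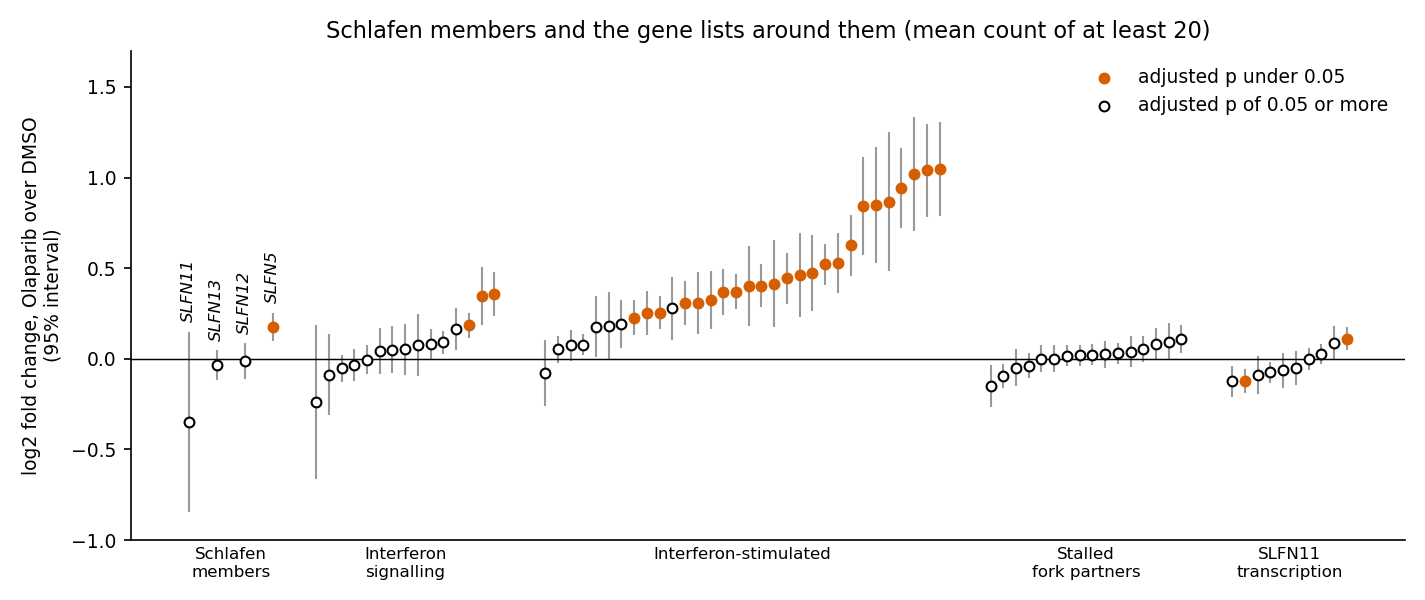
log2 fold changes of Olaparib over DMSO with 95% intervals (vertical axis) for the Schlafen members and 4 gene lists, restricted to genes averaging at least 20 counts and sorted by value within each list. Filled orange points passed an adjusted p of 0.05 (edgeR). SLFN5 at 0.18 lies below most interferon-stimulated genes, and SLFN11 has the widest interval of the members, from -0.85 to 0.15.

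Upstream of these genes, 3 of 17 tested interferon signalling genes passed and all 3 were higher, against 2.15% of all genes. IRF7, which drives interferon gene transcription, rose by 0.36 and the feedback inhibitor SOCS3 by 0.35 on the log2 scale. SOCS3 lost its call without DMSO replicate 1 (edgeR, adjusted p = 0.0541). The median of the list was 0.05. The receptor chains IFNAR1 and IFNAR2 had log2 fold changes of -0.034 and 0.042, and IFNB1 held at most 3 counts in any library. The interferon gene IFNE was detected, with 203 counts over all libraries and at most 43 in any. Its log2 fold change was -0.24 (edgeR, adjusted p = 0.664). The other 4 listed genes, IFNA1, IFNL1, IFNL2 and IFNL3, did not pass the filter.

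The treated libraries did not line up in the same way for SLFN5 and for the interferon-stimulated genes. Relative to the DMSO mean, the median log2 difference of the 35 genes was 0.23 in Olaparib replicate 1, 0.41 in replicate 2 and 0.55 in replicate 3. Replicate 1 was the lowest of the treated libraries for 31 of the 35. SLFN5 was instead highest there, at 0.23, with 0.15 in replicate 2 and 0.14 in replicate 3. Without Olaparib replicate 1, SLFN5 still rose by 0.15 on the log2 scale (edgeR, adjusted p = 0.0317), and 27 of the 35 interferon-stimulated genes passed. The order rests on 3 libraries and was not tested.

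**Figure D4:**
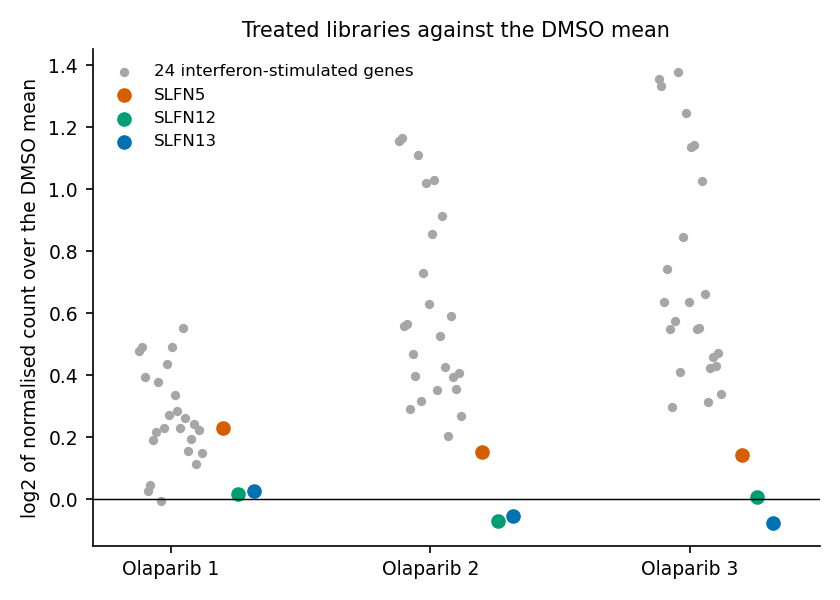
log2 of the normalised count over the DMSO mean (vertical axis) in each of the 3 Olaparib libraries for the 24 interferon-stimulated genes with an adjusted p under 0.05 (grey, spread sideways for visibility), SLFN5, SLFN12 and SLFN13. SLFN5 reads 0.23, 0.15 and 0.14, while the grey points lie lowest in Olaparib 1.

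Genes of the RPA and checkpoint setting in which SLFN11 acts, together with its known partners, were next examined. Of 16 such genes 0 passed the adjusted threshold in the edgeR test, against 3.36% of all genes, and 0 passed by DESeq2. At an unadjusted p under 0.05 in edgeR, 1 was higher and 2 were lower, beside 1702 and 1515 of the 21729 genes tested. RPA1, the large RPA subunit that brings SLFN11 to single-stranded DNA, had 11287, 11515 and 11454 normalised counts with Olaparib and 11022, 11404 and 11430 with DMSO, a log2 fold change of 0.017. The helicases and licensing factors had values of -0.095 for MCM3 (adjusted p = 0.111), 0.11 for CDT1 (adjusted p = 0.116) and 0.019 for DHX9 in the same edgeR fit. The groups did not overlap for 3 of the 16 genes, MCM3 (lower with Olaparib), CDT1 and ATRIP (both higher), a share near the 19.3% of all genes. PPP1CC, a phosphatase subunit that acts on SLFN11, gave 0.022. For SLFN12, PDE3A had 12 counts in all libraries together and no more than 3 in any, so the partner through which small molecules act on SLFN12 was at the floor.

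Of 10 regulators of SLFN11 transcription, 1 passed the adjusted p in each direction, against 2.15% higher and 1.21% lower over all genes. ETS1, an ETS family activator, had 16396, 15318 and 15178 normalised counts with Olaparib and 14922, 14468 and 14018 with DMSO. It rose by 0.11 on the log2 scale (edgeR, adjusted p = 0.0338). EZH2, the methyltransferase that silences SLFN11 in some tumours, had 4273, 4358 and 4274 against 4584, 4748 and 4704 normalised counts. It fell by 0.12 (edgeR, adjusted p = 0.0346). The groups did not overlap for 5 of the 10 genes, against 19.3% of all genes. Of these, ETS1 was higher with Olaparib, while EZH2, EED, HDAC2 and FLI1 were lower. The changes of ETS1 and EZH2 were both under 1.2-fold, and neither gene passed in every fit. The count over the list was 0 without Olaparib replicate 1, without DMSO replicate 2 or without DMSO replicate 3. It was 1 without Olaparib replicate 2 or 3. FLI1, an ETS factor known to drive SLFN11, gave -0.087 and the DNA methyltransferase DNMT1 0.027, neither of which passed. The median of the 10 was -0.058.

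The genes most alike to each member over the 6 libraries were sought among 11184 protein-coding genes averaging at least 100 counts, by the root mean square difference of centred log2 CPM. For SLFN5 the nearest were NCOA3 (0.00629), a nuclear receptor coactivator, NRCAM (0.013), a cell adhesion molecule, and MYCBP2 (0.0158), a ubiquitin ligase. For SLFN12 the nearest were SMG8, SCARB2 and DSN1, and for SLFN13 they were USP48, TIAL1 and TOR3A, at differences between 0.00924 and 0.0118. SLFN11 had too few counts for this comparison. The nearest of 11184 genes over only 6 libraries are close by selection, and shared regulation was not tested.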

How the data were processed

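RNA was measured in 3 Olaparib and 3 DMSO samples of UWB1.289 cells, grouped by the sample labels. The authors deposited raw read counts per gene, made with Trimmomatic, STAR (GRCh38), Picard MarkDuplicates and featureCounts. The strand setting and whether duplicates were removed are not given in the sources used here. The paper names Ensembl release 96, but the identifiers of the table end at an older number (ENSG00000273493), and 724 of 20046 protein-coding genes of GENCODE release 44 had no row. Coordinates and lengths were taken from GENCODE release 44 and may differ from the gene models that were counted. Release 44 held 81.9% of the identifiers and 96% of those tested. Several genes beyond the SLFN14 end of the cluster, among them TAF15, were listed at 0 in all libraries and were treated as not measured.

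Genes with more than 10 counts in total (21729) were normalised by TMM and compared with edgeR 4.0.16 (R 4.3.3), using the quasi-likelihood test with Benjamini-Hochberg adjustment. The paper used DESeq2, which was run as an alternative (1.42.0), as was limma 3.58.1. A gene was called at an adjusted p under 0.05 and a fold above 1.2. Normalised counts are scaled to the mean effective library of 37437124. Single values were tested with exact permutation tests in SciPy 1.17.1. Replicates of each group differed by more than sampling noise over 15525 genes (chi-square per degree of freedom 1.81 to 4.11), so none was merged. The samples are described as independent replicates of 1 line, and p-values measure only the spread between these cultures.

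The members and gene lists were chosen with earlier results of these data known. Always named were the Schlafen genes, the partners RPA1, MCM3, DHX9, CDT1, PPP1CC and PDE3A, and the nearest protein-coding gene on each side of the cluster. Of the interferon-stimulated genes, the 6 with the smallest adjusted p and every one with a negative estimate were named, and of the other lists up to 6 genes with an adjusted p under 0.05. The 3 most alike genes per member were also named. Some genes covered by this rule are not reported here. IFNAR1, IFNAR2, IFNB1, IFNE, FLI1, DNMT1, WT1 and the genes under the filter were named after their values were seen.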

Additional observations from a re-analysis of the deposited data

How the results depend on the processing

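Over 25 results and 244 alternatives (other tests, scalings and filters, a replicate block, another gene length, and leaving out each library), 217 kept their direction and side of the threshold, or, for counts of genes, stayed within 1.5 times the reported count, or, for levels and ratios, moved by less than 1 SD of the replicates. SLFN5 stayed past an adjusted p of 0.05 in all but the fit without DMSO replicate 3, with log2 fold changes of 0.14 to 0.20 when a library was left out, so the count of members past it ranged from 0 to 1. For SLFN11 that range was -0.52 to -0.086, and DESeq2 gave no adjusted p. The estimate of SLFN12, near 0, turned positive without Olaparib replicate 2 (0.013) and without DMSO replicate 1 (0.000349), within a range of -0.027 to 0.013. Genes past an adjusted p of 0.05 over the whole table numbered 730, or 398 to 870 with a library left out, and fell to 439, 398 and 401 without Olaparib replicate 3, DMSO replicate 2 and DMSO replicate 3. Those ranges were 16 to 27 for the interferon-stimulated, 2 to 4 for the signalling, 0 to 1 (without DMSO replicate 3) for the stalled fork and 0 to 2 for the SLFN11 transcription list, and 0 to 1 (without Olaparib replicate 1) for the neighbours. DESeq2 placed 15 interferon-stimulated genes past it and edgeR with robust dispersion 16, against 24. Without a filter 1 stalled fork gene passed, and with upper quartile scaling 1 SLFN11 transcription gene and 1 neighbour passed. Whether the replicate numbers pair the samples was not settled. The deviations of same-numbered samples had correlations of -0.204, 0.263 and -0.319. The highest correlation, 0.484, was between Olaparib replicate 3 and DMSO replicate 1. With the number as a replicate block, 1322 genes passed over the whole table, 5 in the signalling, 3 in the stalled fork and 4 in the SLFN11 transcription list and 1 neighbour, and the SLFN5 log2 fold change was 0.18. With the canonical transcript length, chosen after the data were seen, the levels per kb were 7.43 and 7.50 for SLFN12 and 5.99 and 6.13 for SLFN13 with Olaparib and DMSO, because those lengths are shorter. The cause of the other changes was not tested. The few counts of SLFN11, SLFN12L, SLFN14 and SLFNL1 limit what can be said of them.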
